A study of Mus musculus with 18 samples.

Results

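The apex of mouse hearts, collected 1 day after infarction or sham surgery, was examined for the expression of 10 genes of blood coagulation and fibrinolysis. The genes were picked by symbol, with earlier results of these data known, and all 10 were listed among the 19197 genes measured: F3, F7, F10, Tfpi, Thbd, Procr, Plau, Plaur, Plat and Serpine2. The 18 libraries formed 3 groups of 6, all from C57BL/6 mice, an inbred strain. MI_DCA hearts came from mice with myocardial infarction (MI) that received DCA at 10 mg/kg per day, MI_vehicle hearts from mice with MI that received vehicle, and sham_vehicle hearts from sham-operated mice that received vehicle. The labels name no transgene or deleted gene in any group, and give no age. They do not spell out DCA, which is read here as the bile acid deoxycholic acid, since the study's title pairs it with TGR5, a bile acid receptor. No group received DCA without infarction, so an effect of DCA in a heart without infarction was not measured.

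Coagulation starts when tissue factor, the product of F3, is exposed to blood and binds factor VII, the product of F7. The complex activates factor X, the product of F10, which turns prothrombin into thrombin, and thrombin turns fibrinogen into the fibrin mesh of a clot. Tissue factor pathway inhibitor (Tfpi) blocks that start, while thrombomodulin (Thbd) and the endothelial protein C receptor (Procr) on vessel walls turn thrombin towards the anticoagulant protein C. Fibrin is dissolved by plasmin, made from plasminogen by the urokinase-type activator (Plau), which acts on cells that carry its receptor (Plaur), and by the tissue-type activator (Plat). Protease nexin-1, the product of Serpine2, inhibits thrombin and both plasminogen activators. In the heart, tissue factor is made by cardiomyocytes among other cells, and plasminogen activation takes part in the healing of an infarct.

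All libraries carried the markers of heart muscle: the summed level of 8 cardiomyocyte markers was 31322 to 56467 FPKM in MI_DCA, 31980 to 52094 FPKM in MI_vehicle and 52445 to 59711 FPKM in sham_vehicle hearts. FPKM is a read count divided by transcript length and library size. The values fitted about 10140000 to 12940000 reads in MI_DCA, 11080000 to 13820000 in MI_vehicle and 9560000 to 10640000 in sham_vehicle libraries. Of the infarcted libraries, 4 stood close to sham over all genes. MI_DCA replicates 1, 3 and 5 had Pearson correlations across genes of 0.989, 0.990 and 0.984 with the mean sham library, and MI_vehicle replicate 4 had 0.986. The remaining infarcted libraries had 0.897 to 0.957, and each sham library had 0.990 to 0.994 with the mean of the other sham libraries. How much tissue in each apex was infarcted is not in the labels. Results are therefore given with all libraries and, where they change, without these 4, a choice made after their values were seen that favours larger differences from sham.

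The members differed widely in level per transcript length. In MI_DCA hearts the order of mean FPKM was Tfpi (33.9), Thbd (30.7), Serpine2 (17.2), Plaur (12.6), F3 (10.9), Plat (10.7), Plau (6.58), Procr (4.29), F10 (2.41) and F7 (1.47). In MI_vehicle hearts it was Tfpi (33.2), Thbd (25.2), Plaur (21.4), Serpine2 (16.4), Plat (15.2), Plau (13.6), F3 (9.75), Procr (5.89), F10 (4.28) and F7 (2.45). The hearts of neighbours in the order overlapped in both infarcted groups, except between Thbd and Serpine2 in MI_DCA hearts. In sham_vehicle hearts it was Tfpi (39.0), Thbd (24.8), Serpine2 (21.9), F3 (15.1), Plat (8.99), Plau (3.04), Plaur (2.15), Procr (1.80), F10 (0.488) and F7 (0.287). There the hearts overlapped between the neighbours Thbd and Serpine2, Plau and Plaur, Plaur and Procr, and F10 and F7, and did not overlap between the others. Tfpi and Thbd led and F10 and F7 closed the order in all 3 groups.

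The genes lie on 6 chromosomes of GRCm38.p6, and F7 and F10 are neighbours. F7 spans chromosome 8, 13025506 to 13035809, and F10 spans 13037308 to 13056676 on the same strand, with 1498 bases and 0 annotated genes between them. Plat lies on chromosome 8 as well, at 22757722 to 22782848. Thbd (148404471 to 148408188), Procr (155751125 to 155755478) and Tfpi (84432855 to 84476775) lie on chromosome 2. F3 lies on chromosome 3 (121723537 to 121735052), Plaur on chromosome 7 (24460937 to 24475970), Plau on chromosome 14 (20836662 to 20843388) and Serpine2 on chromosome 1 (79794317 to 79858665). No member overlapped another annotated gene.

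The 250 bases before the start site are shown for F3, the member that was lower in every MI_vehicle heart than in every sham_vehicle heart, and for Plaur and F10, which were higher in every infarcted heart than in every sham_vehicle heart. The sequences are from RefSeq (GRCm38.p6, all on the forward strand), at chr3:121723287-121723536, chr7:24462233-24462482 and chr8:13037058-13037307, and the Plaur start site used there lies inside the span of the gene. Capitals mark matches on either strand to the AP-1 motif TGANTCA, the CRE motif TGACGTCA, the NF-kB motif (GGGA, any 4 bases, CC), the GC box GGGCGG and the TATA motif TATAAA.
F3: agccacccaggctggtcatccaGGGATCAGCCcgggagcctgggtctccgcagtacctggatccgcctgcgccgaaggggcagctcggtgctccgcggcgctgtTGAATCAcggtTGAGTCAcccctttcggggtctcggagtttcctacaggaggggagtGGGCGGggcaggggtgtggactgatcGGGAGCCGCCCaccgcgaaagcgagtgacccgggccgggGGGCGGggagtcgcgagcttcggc
Plaur: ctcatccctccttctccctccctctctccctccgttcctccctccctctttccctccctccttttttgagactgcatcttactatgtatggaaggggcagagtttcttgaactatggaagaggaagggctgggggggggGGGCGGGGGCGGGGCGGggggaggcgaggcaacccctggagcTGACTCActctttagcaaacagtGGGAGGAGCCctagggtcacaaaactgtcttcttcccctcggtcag
F10: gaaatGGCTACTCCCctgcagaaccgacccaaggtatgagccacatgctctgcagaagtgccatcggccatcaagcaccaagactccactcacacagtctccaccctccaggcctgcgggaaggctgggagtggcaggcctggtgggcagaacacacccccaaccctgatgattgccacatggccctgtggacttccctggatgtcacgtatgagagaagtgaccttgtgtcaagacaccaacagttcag
The F3 sequence held AP-1 matches at -146 and -135, NF-kB matches at -228 and -63, and GC boxes at -89, -58 and -24, of which the GC box at -58 overlaps the NF-kB match at -63. Plaur held an AP-1 match at -69, an NF-kB match at -46 and GC boxes at -111, -105 and -100, of which the last 2 share a base. F10 held an NF-kB match at -245. Over the same 250 bases, AP-1 was matched in 6.75% of 32851 promoters in the table, CRE in 1.55%, NF-kB in 17.6%, the GC box in 32.7% and TATA in 12.4%. A match is a run of letters and not a measured binding site.

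Infarction was first compared with sham surgery among vehicle-treated mice. In MI_vehicle hearts F7, F10, Procr, Plau, Plaur and Plat were higher than in sham_vehicle hearts, F3 and Serpine2 were lower, and neither Tfpi nor Thbd passed the test (limma on log2(FPKM + 1), adjusted p under 0.05 over all genes tested). F7 and F10 entered this test only through the MI_vehicle hearts where they were high, so the counts that follow are over the other 8 members. Of these 4 were called higher and 2 lower, where 38.3% of 11969 genes were called higher and 20.1% lower, 58.4% in all. Their median log2 fold change was 0.35, and that of all genes tested was 0.12. The groups did not overlap in 3 of the 8 that were higher and 1 that was lower, where 16.1% and 5.74% of all genes did not overlap. The labels do not state that the libraries came from separate mice, so a p-value here reflects how far these samples spread, which may be technical.

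Of the genes that start coagulation, F3 fell while F7 and F10 rose. F3 had a lowest, median and highest value of 7.13, 9.52 and 13.6 FPKM in MI_vehicle hearts, against 13.8, 15.2 and 16.9 FPKM in sham_vehicle hearts. Every MI_vehicle heart lay below every sham_vehicle heart, the nearest by a small margin. The log2 fold change was -0.61 (SE 0.13, adjusted p = 0.00161). The sums of the 8 cardiomyocyte markers did not overlap either, at 31980 to 52094 FPKM in MI_vehicle and 52445 to 59711 FPKM in sham_vehicle hearts. Of these markers 6 were called lower, 1, Actc1, was called higher (0.56) and 1 was not called. The part of cardiomyocytes in the values of F3 was not tested.

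F7, usually a liver gene, had 1.28, 2.33 and 3.6 FPKM as lowest, median and highest values in MI_vehicle hearts, against 0.11, 0.24 and 0.67 FPKM in sham_vehicle hearts (log2 fold change 1.39, SE 0.17, adjusted p = 7.82e-05). F10 had 2.13, 4.42 and 7.27 FPKM in MI_vehicle hearts, against 0.39, 0.41 and 0.73 FPKM in sham_vehicle hearts (1.75, SE 0.20, adjusted p = 5.48e-05). The groups did not overlap in either gene. Both passed the filter on low values only through the 6 MI_vehicle hearts, so a gene with their pattern could enter this test only by being higher there. With a pseudocount of 0.1 in place of 1, which compresses low values less, the log2 fold change was 2.78 for F7 and 2.81 for F10 (adjusted p = 7.28e-05 and 2.52e-05). The summed level of 9 hepatocyte markers was 13.2 to 23.3 FPKM in MI_vehicle and 19.99 to 59.4 FPKM in sham_vehicle hearts. The 59.4 was sham_vehicle replicate 5, and the next sham heart had 32.7 FPKM. Most of the sum was Trf, at a mean of 16.2 FPKM in MI_vehicle and 21.6 FPKM in sham_vehicle hearts. Of the 9 markers 2 were called lower by limma, Ahsg (adjusted p = 0.0252) and Trf (adjusted p = 0.0372). The other 7 were not called, and 6 of them lay below the filter. Alb, the albumin gene, was at most 0.08 FPKM in any MI_vehicle heart and listed at 0 in 4 of them. It reached 15.4 FPKM in 1 sham_vehicle heart. The part of liver transcripts in these values was not tested.

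Tfpi, the inhibitor of that start, had 22.8, 32.1 and 45.3 FPKM in MI_vehicle hearts, against 32.1, 39.6 and 42.1 FPKM in sham_vehicle hearts. The groups overlapped, and the difference did not pass the test (-0.25, SE 0.13, adjusted p = 0.125). It passed with median-ratio scaling between libraries (-0.39, adjusted p = 0.0255), with quantile normalization (-0.37, adjusted p = 0.0383) and without MI_vehicle replicate 5 (-0.34, adjusted p = 0.0253).

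The receptors of the protein C pathway differed from each other. Procr had 2.28, 6.25 and 8.49 FPKM in MI_vehicle hearts, against 1.45, 1.80 and 2.2 FPKM in sham_vehicle hearts. All MI_vehicle hearts lay above all sham_vehicle hearts (1.23, SE 0.20, adjusted p = 0.000391). Thbd had 19.4, 24.6 and 30.9 FPKM in MI_vehicle hearts, against 21.3, 24.3 and 29.6 FPKM in sham_vehicle hearts. Its log2 fold change was 0.02, with a 95% confidence interval of -0.23 to 0.27 (adjusted p = 0.898), and was -0.12 with either scaling. Procr and Thbd are both made by endothelial cells. The summed level of 10 endothelial markers was 465 to 594 FPKM in MI_vehicle and 462 to 599 FPKM in sham_vehicle hearts. Of these 3 were called higher, Cldn5 (0.79), Egfl7 (0.40) and Esam (0.26), and 3 lower, Tie1 (-0.41), Tek (-0.31) and Kdr (-0.27). The part of endothelial cells in the values of Procr and Thbd was not tested.

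The plasminogen activators and the urokinase receptor rose. Plaur had the largest fold change of the 10 genes on this scale, with 5.08, 19.9 and 38.1 FPKM in MI_vehicle hearts, against 1.21, 2.15 and 2.83 FPKM in sham_vehicle hearts (2.66, SE 0.34, adjusted p = 9.80e-05). Plau had 4.36, 15.0 and 17.5 FPKM in MI_vehicle hearts, against 2.22, 3.24 and 3.76 FPKM in sham_vehicle hearts (1.76, SE 0.25, adjusted p = 0.000181). In both genes the groups did not overlap, and the lowest MI_vehicle heart was replicate 4, one of the libraries close to sham.

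Plat had 9.11, 15.2 and 21.6 FPKM in MI_vehicle hearts, against 6.90, 8.995 and 11.2 FPKM in sham_vehicle hearts (0.67, SE 0.16, adjusted p = 0.00293). Only MI_vehicle replicate 4 lay within the range of the sham_vehicle hearts. Serpine2, an inhibitor of both activators, had 12.3, 16.3 and 20.3 FPKM in MI_vehicle hearts, against 17.95, 21.9 and 24.9 FPKM in sham_vehicle hearts. The groups overlapped, and the fall (-0.41, SE 0.13, adjusted p = 0.0152) was not called in 1 fit over all 18 libraries (adjusted p = 0.0810).

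**Figure D1:**
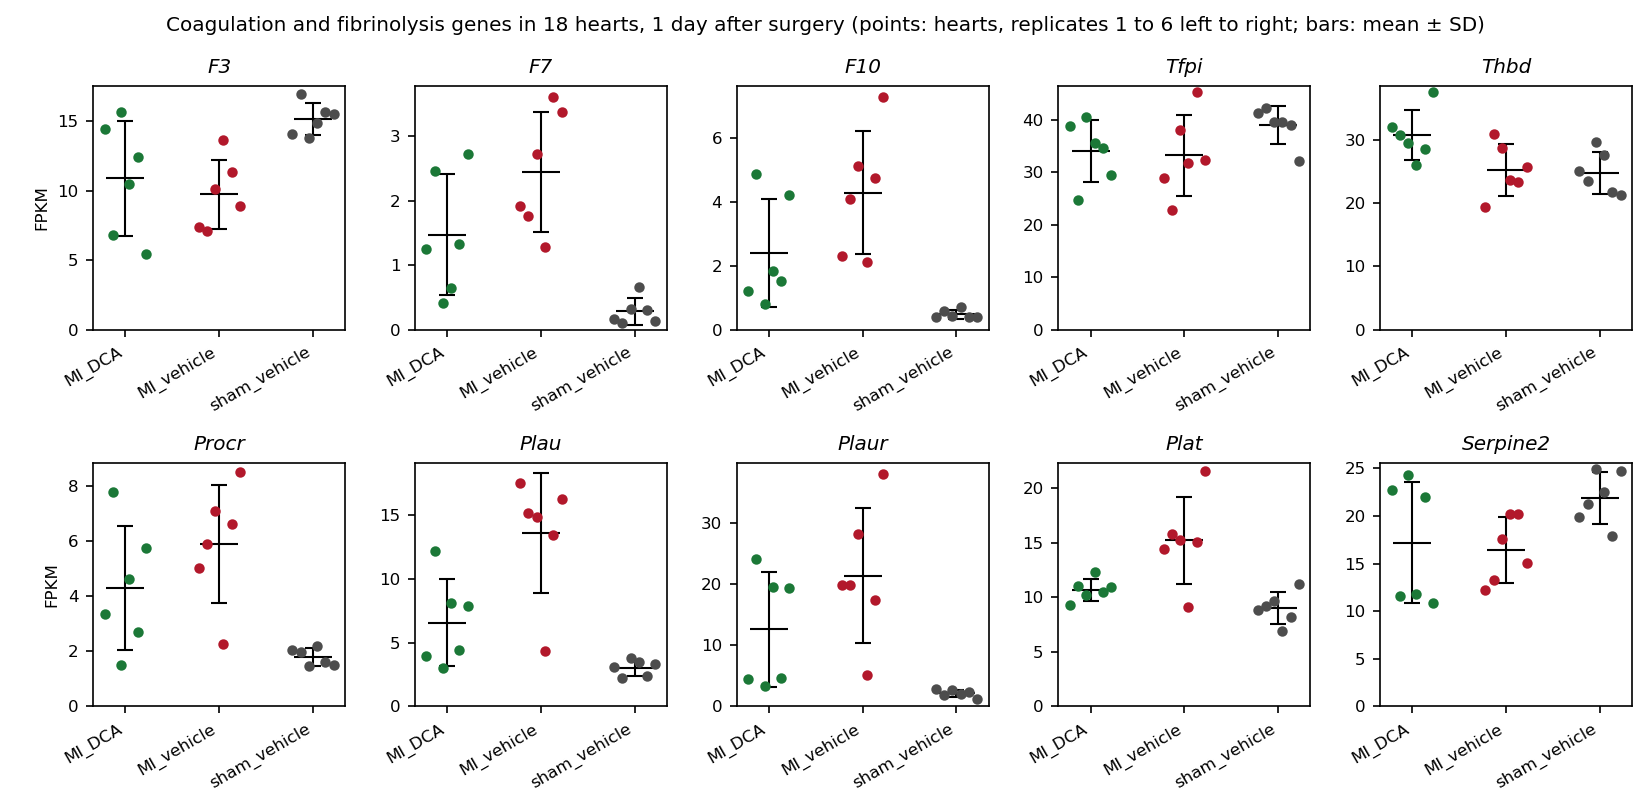
Level of each member in FPKM (vertical axis, linear, from 0) in MI_DCA, MI_vehicle and sham_vehicle hearts, with points for the 6 hearts of a group in order of replicate and bars for the mean and SD. F7, F10, Procr, Plau and Plaur of every MI_vehicle heart stand above those of every sham_vehicle heart, F3 of every MI_vehicle heart stands below, and MI_DCA hearts spread between the other groups in several panels.

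Without MI_vehicle replicate 4 the limma calls of the 8 members other than F7 and F10 stayed the same, 4 higher and 2 lower. Over all genes tested by limma 42.0% of 11844 were called higher and 23.1% lower, 65.2% in all. F7 and F10 lay below the filter there and were called higher by the exact permutation test (adjusted p = 0.0240 for each). The share of such genes called higher was 3.29% with all libraries and is not given for this setting. Without replicate 4 the log2 fold changes were 3.0 for Plaur, 2.03 for Plau, 1.43 for Procr and -0.71 for F3. Markers of other cells were read in the same hearts. The summed level of 10 monocyte and macrophage markers was 485 to 1069 FPKM in MI_vehicle and 259 to 434 FPKM in sham_vehicle hearts, with all 10 called higher and none listed at 0 in every heart. Neutrophil markers summed to 57.4 to 390 FPKM in MI_vehicle and 10.95 to 39.8 FPKM in sham_vehicle hearts, with 7 of 8 called higher and Ly6g not called. Platelet markers summed to 41.9 to 112 FPKM in MI_vehicle and 20.1 to 49.4 FPKM in sham_vehicle hearts, and the sums overlapped. Most of the platelet sum was Pf4, at a mean of 65.5 FPKM in MI_vehicle and 34.2 FPKM in sham_vehicle hearts. Of the 8 platelet markers Pf4, Ppbp and Itga2b were called higher and 5 were not called. Fibroblast markers, from cells that can express Serpine2, summed to 641 to 1047 FPKM in MI_vehicle and 1200 to 1474 FPKM in sham_vehicle hearts. Of the 8 fibroblast markers 3 were called higher, Col1a1 (0.71), Col1a2 (0.55) and Pdgfra (0.48), and 3 lower, Gsn (-1.59), Dcn (-1.12) and Dpt (-1.0). The part of these cells in the members' differences was not tested. In bulk tissue, fewer cells of a type and less RNA per cell cannot be told apart.

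Infarcted hearts given DCA were then compared with the same sham_vehicle hearts. Plaur, Plau and Procr were higher in MI_DCA than in sham_vehicle hearts, and no member was called lower. These were 3 of the 8 members that passed the filter, where 15.5% of 11842 genes were called higher and 8.33% lower, 23.8% in all. The 8 members had a median log2 fold change of 0.27 and all genes tested 0.05. Leaving out 1 library moved the count of members called over 1 to 5 and that of genes over 1055 to 4085. Only 1 member, Plaur, was called without sham_vehicle replicate 2, 5 or 6 or MI_DCA replicate 2, 4 or 6, and 5 were called without MI_DCA replicate 3. Fewer genes, 1055 to 1662, were called without any 1 of sham_vehicle replicates 2 to 6 or MI_DCA replicates 2, 4 and 6, and 4085 without MI_DCA replicate 3. Groups did not overlap in 1 of the 8 members, Plaur, where 6.31% of the genes tested did not overlap in that direction and 2.84% in the other.

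The MI_DCA hearts fell apart in Plaur. Replicates 2, 4 and 6 had 24.1, 19.6 and 19.5 FPKM, and replicates 1, 3 and 5 had 4.54, 3.40 and 4.70 FPKM, against 1.21 to 2.83 FPKM in sham_vehicle hearts. All 6 lay above the sham_vehicle hearts, with a wide gap among themselves (log2 fold change 1.78, SE 0.43, adjusted p = 0.0184). The call held under all alternatives run, with adjusted p up to 0.0427.

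Plau had 3.05, 6.13 and 12.2 FPKM as lowest, median and highest values in MI_DCA hearts, against 2.22, 3.24 and 3.76 FPKM in sham_vehicle hearts (0.80, SE 0.25, adjusted p = 0.0376). Procr had 1.52, 3.995 and 7.77 FPKM in MI_DCA hearts, against 1.45, 1.80 and 2.2 FPKM in sham_vehicle hearts (0.81, SE 0.24, adjusted p = 0.0331). In each gene the lowest MI_DCA heart, replicate 3, lay within the sham range. Both calls depended on the processing and on single libraries. With no filter on low values neither was called (adjusted p = 0.0614 for Plau and 0.0530 for Procr), and Plau was not called in 1 fit over all 18 libraries (adjusted p = 0.0563). The Plau call was lost without any 1 of the 6 sham_vehicle libraries or without MI_DCA replicate 2, 4 or 6 (adjusted p = 0.0551 to 0.0814). That of Procr was lost without sham_vehicle replicate 2, 3, 5 or 6 or MI_DCA replicate 2, 4 or 6 (adjusted p = 0.0578 to 0.0726).

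F10 and F7 lay below the filter in this comparison and were compared by an exact permutation test (two-sided) of the 12 hearts in every possible regrouping. F10 had 0.80, 1.69 and 4.86 FPKM in MI_DCA hearts, against 0.39, 0.41 and 0.73 FPKM in sham_vehicle hearts. The groups did not overlap (log2 fold change 1.06), as in 1.11% of the genes below the filter, and the permutation p = 0.00216 is the smallest this test can give. Adjusted over the 6416 genes below the filter it was 0.131. F7 had 0.42, 1.29 and 2.72 FPKM in MI_DCA hearts, against 0.11, 0.24 and 0.67 FPKM in sham_vehicle hearts (0.87, permutation p = 0.00649, adjusted p = 0.171). Replicates 3 and 4 lay within the sham range. None of those 6416 genes was called. With no filter on low values, limma called both F7 (adjusted p = 0.0324) and F10 (adjusted p = 0.0295), the setting in which Plau and Procr were not called. With a pseudocount of 0.1 the log2 fold change was 1.93 for F7 and 1.85 for F10, with the same permutation calls.

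The other members did not pass the test. F3 had 14.4, 15.7 and 12.4 FPKM in MI_DCA replicates 1, 3 and 5 and 6.79, 10.5 and 5.46 FPKM in replicates 2, 4 and 6, against 13.8 to 16.9 FPKM in sham_vehicle hearts (-0.52, SE 0.21, adjusted p = 0.0750). Serpine2 had 22.8, 24.3 and 22.02 FPKM in replicates 1, 3 and 5 and 11.6, 11.8 and 10.9 FPKM in replicates 2, 4 and 6, against 17.95 to 24.9 FPKM in sham_vehicle hearts (-0.40, SE 0.20, adjusted p = 0.149). In both genes replicates 2, 4 and 6 lay below all sham_vehicle hearts, and in F3 replicate 5 did as well. F3 was called lower without MI_DCA replicate 1 (-0.61, adjusted p = 0.0409) or 3 (-0.64, adjusted p = 0.0273).

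Fibroblast markers divided the MI_DCA hearts along the same replicates, as did cardiomyocyte, smooth muscle and pericyte, and hepatocyte markers. Fibroblast markers summed to 1114, 1083 and 1044 FPKM in MI_DCA replicates 1, 3 and 5. In replicates 2, 4 and 6 they summed to 526, 493 and 492 FPKM, against 1200 to 1474 FPKM in sham_vehicle hearts. Of the 8 fibroblast markers 5 were called lower and 0 higher. In the same order, cardiomyocyte markers summed to 51689, 56467 and 51421 FPKM and to 31322, 48712 and 37634 FPKM, with 3 of 8 called lower. Smooth muscle and pericyte markers summed to 477, 434 and 422 FPKM and to 384, 331 and 279 FPKM, with 3 of 8 called lower and 1 higher. Hepatocyte markers summed to 18.5, 15.7 and 17.15 FPKM and to 10.95, 10.3 and 8.53 FPKM, with 1 of 9 called lower. The leukocyte and platelet sums did not divide the hearts that way, since MI_DCA replicate 4 stood below replicates 1 and 5 in each. Monocyte and macrophage markers summed to 291 to 790 FPKM in MI_DCA and 259 to 434 FPKM in sham_vehicle hearts, with 5 of 10 called higher. MI_DCA replicates 1, 4 and 5 had 403, 321 and 429 FPKM. Neutrophil markers summed to 42.5 to 185 FPKM in MI_DCA and 10.95 to 39.8 FPKM in sham_vehicle hearts, with 6 of 8 called higher. The same 3 MI_DCA replicates had 63.5, 44.9 and 78.9 FPKM. Platelet markers summed to 33.1 to 75.7 FPKM in MI_DCA, lowest in replicate 4, and 20.1 to 49.4 FPKM in sham_vehicle hearts. Most of the platelet sum in MI_DCA hearts too was Pf4, at a mean of 50.7 FPKM. Of the platelet markers Ppbp was called higher and 7 were not called. The part of these cells in the members' differences was not tested here either.

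Tfpi had 24.8, 35.1 and 40.5 FPKM in MI_DCA hearts, against 32.1, 39.6 and 42.1 FPKM in sham_vehicle hearts (-0.21, adjusted p = 0.185). Plat had 9.28, 10.7 and 12.3 FPKM in MI_DCA hearts, against 6.90, 8.995 and 11.2 FPKM in sham_vehicle hearts (0.24, adjusted p = 0.0952). Thbd had 26.0, 30.1 and 37.5 FPKM in MI_DCA hearts, against 21.3, 24.3 and 29.6 FPKM in sham_vehicle hearts (0.30, adjusted p = 0.0509). All 3 genes overlapped between the groups. Thbd was called without sham_vehicle replicate 3 (0.35, adjusted p = 0.0466) or MI_DCA replicate 3 (0.31, adjusted p = 0.0493).

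Without MI_DCA replicates 1, 3 and 5, 7 members were called against sham, 4 higher and 3 lower, where 31.7% of 11570 genes were called higher and 25.3% lower, 57.0% in all. Only MI_DCA replicates 2, 4 and 6 remained, kept because they stood further from sham over all genes. That choice favours calls, so the limma p-values below cannot be read as a test of the group. Plaur had a log2 fold change of 2.82, Plau 1.35, Procr 1.31 and Plat 0.32 (adjusted p = 2.47e-07, 3.29e-05, 1.85e-05 and 0.0405). F3 had -0.95, Serpine2 -0.87 and Tfpi -0.38 (adjusted p = 0.000236, 3.95e-05 and 0.0158). With all libraries, MI_DCA replicate 3 had 8 of the 10 members within the range of the sham_vehicle hearts, replicates 1 and 5 had 4, replicate 4 had 3, and replicates 2 and 6 had 1. Among MI_vehicle hearts, replicate 4 had 3, replicates 3, 5 and 6 had 2, and replicates 1 and 2 had 0.

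**Figure D2:**
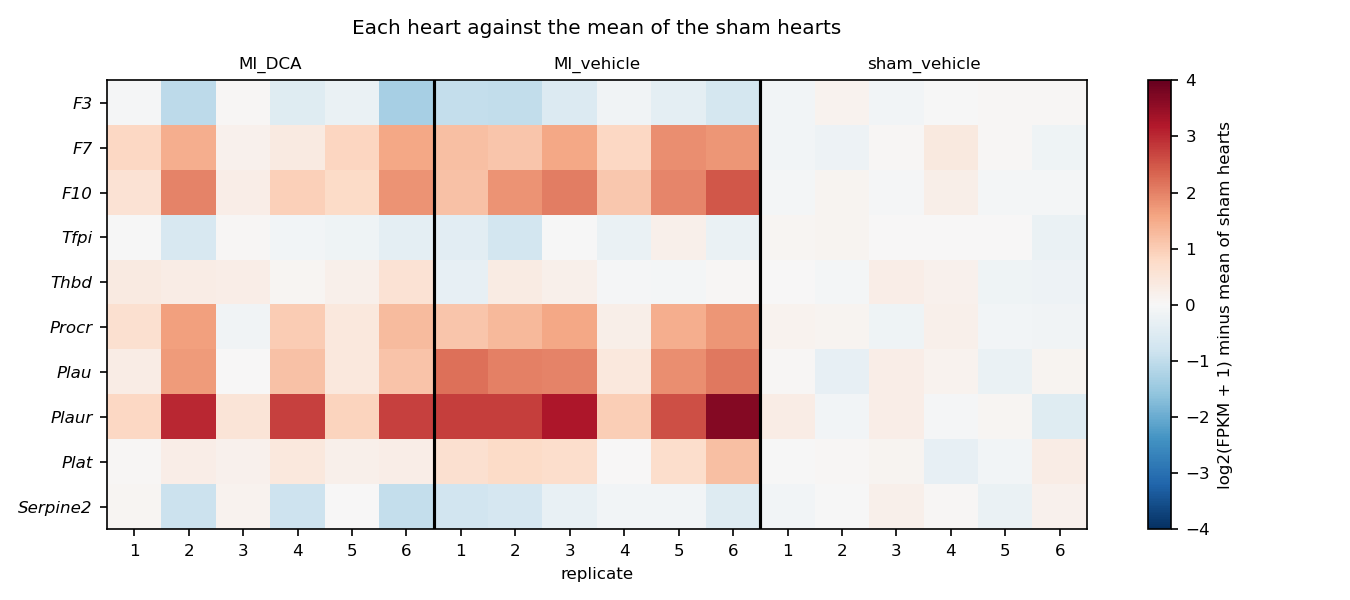
Each heart (columns, by group and replicate) against the mean of the sham_vehicle hearts for each member (rows), as a difference on the log2(FPKM + 1) scale, red above and blue below. Plaur is deep red in MI_DCA replicates 2, 4 and 6 and in the MI_vehicle hearts other than replicate 4, and paler in the remaining infarcted hearts. F3 and Serpine2 are pale blue in MI_DCA replicates 2, 4 and 6 and in several MI_vehicle hearts, replicates 1 and 2 among them.

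DCA was last compared with vehicle among infarcted hearts, the comparison named in the study's title. No member passed the test (adjusted p = 0.407 to 0.988), and 0 of 12004 genes were called, a share of 0%. At an unadjusted p under 0.05 there were 3 members, Plau and Plat lower and Thbd higher in MI_DCA hearts, where 9.22% of all genes were lower and 1.60% higher at that level, 10.8% in all. The members had a median log2 fold change of -0.43 and all genes tested -0.06. No member separated the groups, as 0.541% of all genes tested did, 0.0750% upward and 0.467% downward.

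Plau had 3.05, 6.13 and 12.2 FPKM in MI_DCA hearts, against 4.36, 15.0 and 17.5 FPKM in MI_vehicle hearts. All 6 MI_DCA hearts lay below the 5 highest MI_vehicle hearts. The log2 fold change was -0.97 (95% confidence interval -1.71 to -0.22, unadjusted p = 0.0148 and adjusted p = 0.407 by limma). Plat had 9.28, 10.7 and 12.3 FPKM in MI_DCA hearts, against 9.11, 15.2 and 21.6 FPKM in MI_vehicle hearts, and here too only MI_vehicle replicate 4 reached down to the MI_DCA hearts (-0.44, interval -0.76 to -0.11, unadjusted p = 0.0127 and adjusted p = 0.407 by limma). Thbd had 26.0, 30.1 and 37.5 FPKM in MI_DCA hearts, against 19.4, 24.6 and 30.9 FPKM in MI_vehicle hearts (0.28, interval 0.03 to 0.53, unadjusted p = 0.0322 and adjusted p = 0.439 by limma).

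For the remaining members the intervals included 0. Plaur had -0.88 (interval -2.04 to 0.29), F10 -0.69 (-1.39 to 0.01), F7 -0.52 (-1.07 to 0.03) and Procr -0.42 (-1.09 to 0.25). F3 had 0.09 (-0.42 to 0.61), Tfpi 0.04 (-0.30 to 0.39) and Serpine2 0.01 (-0.47 to 0.49). With a pseudocount of 0.1 F7 had -0.85 (adjusted p = 0.464). Without MI_DCA replicates 1, 3 and 5 and MI_vehicle replicate 4, no gene was called either, and the log2 fold changes were -0.69 for Plau, -0.48 for Plat, -0.17 for Plaur, -0.24 for F3, -0.14 for Tfpi and -0.41 for Serpine2, the last 3 with a turned sign.

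Monocyte and macrophage markers were lower in MI_DCA than in MI_vehicle hearts by the sign of all 10 fold changes, none of them called, and 6 had an unadjusted p under 0.05. Their sum was 291 to 790 FPKM in MI_DCA and 485 to 1069 FPKM in MI_vehicle hearts. Neutrophil markers summed to 42.5 to 185 FPKM in MI_DCA and 57.4 to 390 FPKM in MI_vehicle hearts, and endothelial markers to 514 to 656 FPKM in MI_DCA and 465 to 594 FPKM in MI_vehicle hearts. The part of these cells in the values of Plau, Plat and Thbd was not tested. The MI_vehicle hearts serve in 2 of the comparisons, as do the sham_vehicle and MI_DCA hearts, so the fold changes are not independent of each other.

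**Figure D3:**
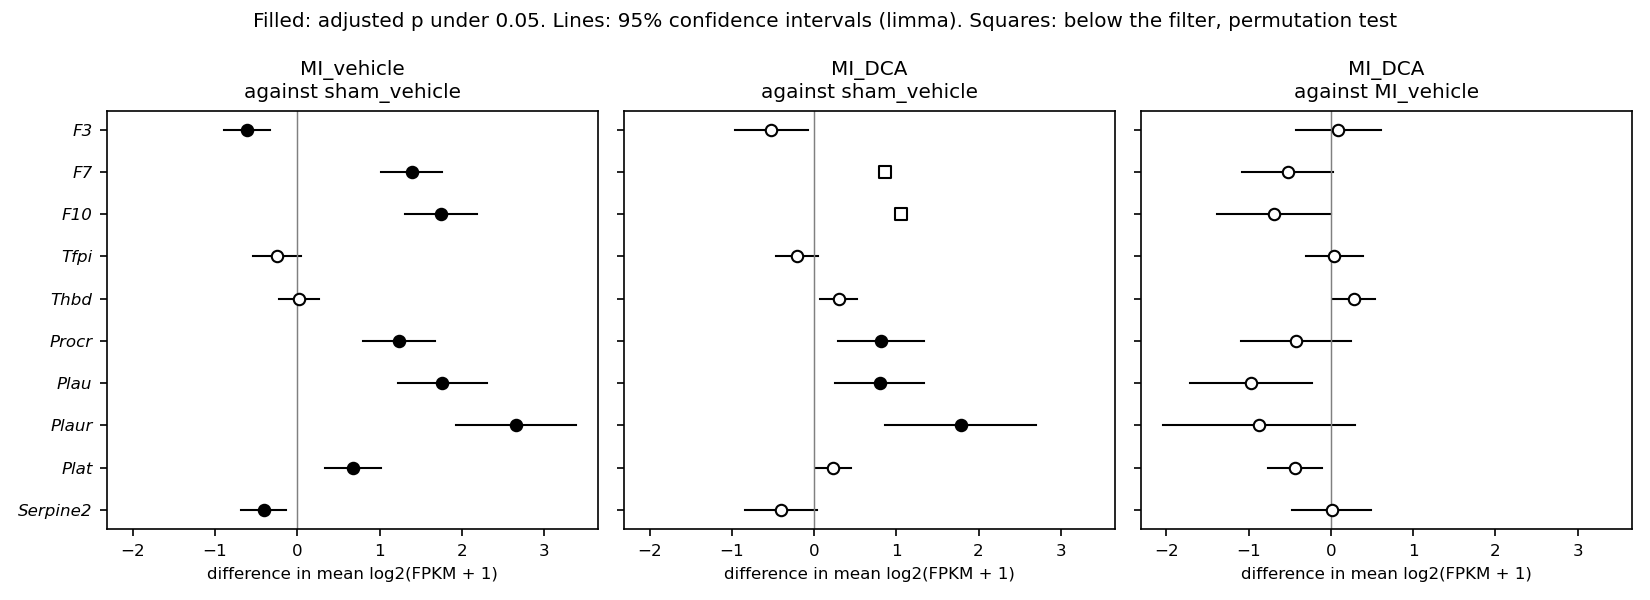
Difference in mean log2(FPKM + 1) of each member (rows) in each comparison (panels), with 95% confidence intervals from limma, filled where the adjusted p was under 0.05 and square where a gene lay below the filter. Filled points appear for 8 members in MI_vehicle against sham_vehicle hearts, for 3 in MI_DCA against sham_vehicle hearts and for none in MI_DCA against MI_vehicle hearts. Of all genes tested by limma, 58.4%, 23.8% and 0% were called in these comparisons. The 8 include F7 and F10, which passed the filter only through the MI_vehicle hearts where they were high.

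The balance between members was described within each heart as a ratio of FPKM. Plau over Plat, urokinase-type over tissue-type activator, had a lowest, median and highest value of 0.299, 0.540 and 1.10 in MI_DCA, 0.479, 0.925 and 1.22 in MI_vehicle and 0.243, 0.326 and 0.500 in sham_vehicle hearts. Plau stood above Plat in 1 MI_DCA heart, 1 MI_vehicle heart and 0 sham_vehicle hearts. F3 over Tfpi, the trigger of coagulation over its inhibitor, had 0.185, 0.327 and 0.387 in MI_DCA, 0.250, 0.270 and 0.429 in MI_vehicle and 0.341, 0.388 and 0.483 in sham_vehicle hearts. Tfpi stood above F3 in every heart. These ratios were built from members already described and were not tested.

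**Figure D4:**
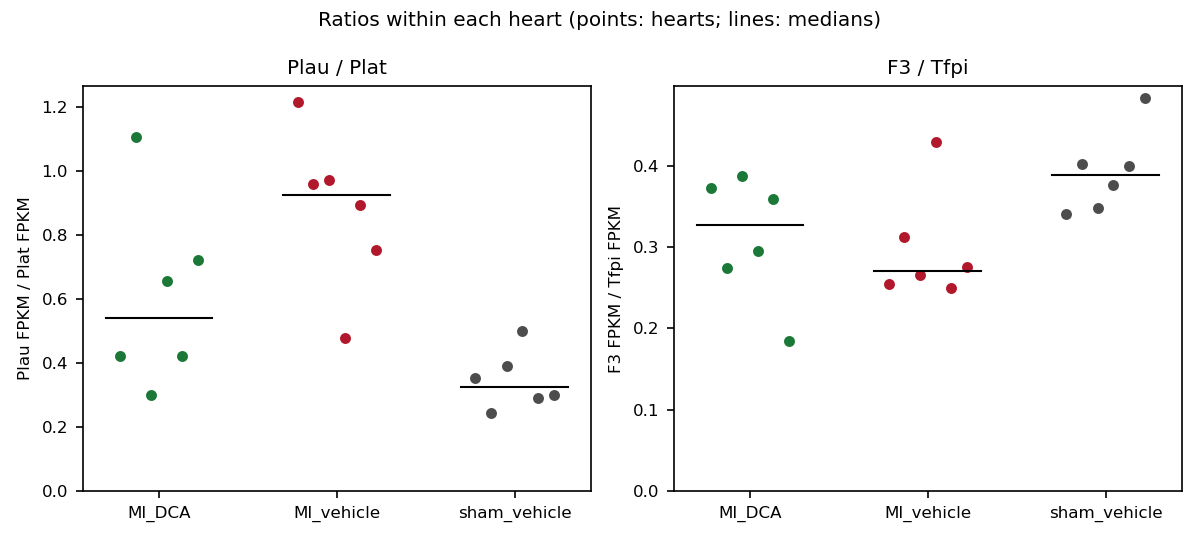
Ratio of Plau to Plat (left) and of F3 to Tfpi (right) in FPKM within each heart, with points for hearts and lines for group medians. The Plau to Plat median is 0.540 in MI_DCA, 0.925 in MI_vehicle and 0.326 in sham_vehicle hearts, and the F3 to Tfpi ratio stays below 0.5 in every heart.

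Other genes of the same pathways were read from lists drawn up by function, with earlier results of these data known. Their counts stand beside the same shares of all genes tested, 15.5% higher and 8.33% lower in MI_DCA, and 38.3% higher and 20.1% lower in MI_vehicle hearts, against sham. Of 16 further coagulation factor and fibrinogen genes, 3 passed the filter, and 1, Fgl2, was called higher in MI_vehicle hearts. Fgl2, whose product can turn prothrombin into thrombin, averaged 37.7 ± 15.3 FPKM in MI_DCA, 41.6 ± 7.58 in MI_vehicle and 19.5 ± 4.11 in sham_vehicle hearts (SD, n = 6 each). It was called higher against sham in both comparisons (0.84 with adjusted p = 0.0276 in MI_DCA and 1.06 with adjusted p = 0.000117 in MI_vehicle hearts, by limma). Vwf, the gene of the von Willebrand factor that tethers platelets, had -0.30 in MI_DCA (adjusted p = 0.275) and -0.25 in MI_vehicle hearts (adjusted p = 0.169). F13a1, which encodes the fibrin-linking chain of factor XIII, had -0.005 in MI_DCA (adjusted p = 0.987) and 0.31 in MI_vehicle hearts (adjusted p = 0.139). F5, the cofactor of factor X, lay below the filter at a mean of 0.0767 FPKM in MI_DCA, 0.105 in MI_vehicle and 0.0167 in sham_vehicle hearts.

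Of 10 further genes listed as anticoagulants 4 passed the filter, with a median log2 fold change against sham of 0.32 in MI_DCA and 0.57 in MI_vehicle hearts. Among these 4, Gas6 is a relative of the protein S gene, and its values are not read here as those of an anticoagulant. In MI_vehicle against sham_vehicle hearts Tfpi2 (1.28, adjusted p = 0.00420), the annexin gene Anxa5 (0.81, adjusted p = 0.000270) and Pros1, the protein S gene (0.33, adjusted p = 0.0169), were called higher and Gas6 (-0.50, adjusted p = 0.0173) lower. In MI_DCA against sham_vehicle hearts 2 of 4 were called higher, Tfpi2 (0.77, adjusted p = 0.0342) and Anxa5 (0.45, adjusted p = 0.0263). Among 4 protease-activated receptor genes, F2r, the thrombin receptor gene, averaged 17.2 ± 3.37 FPKM in MI_DCA, 20.4 ± 4.95 in MI_vehicle and 14.2 ± 1.42 in sham_vehicle hearts (SD, n = 6 each). It was called higher in MI_vehicle (0.47, adjusted p = 0.00972) and not in MI_DCA hearts (0.24, adjusted p = 0.128) against sham. F2rl1, below the filter, was called higher in MI_vehicle hearts by the exact permutation test (0.70, adjusted p = 0.0496), as were 3.29% of genes below the filter.

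Of 14 further genes of fibrinolysis 8 passed the filter, of which 2 were called higher and 1 lower in MI_DCA hearts, and 5 higher and 2 lower in MI_vehicle hearts, against sham. The median log2 fold change of the 8 was 0.17 in MI_DCA and 0.47 in MI_vehicle hearts, beside 0.05 and 0.12 over all genes tested. Anxa2 and S100a10, whose products form a complex that gathers plasminogen and Plat on cells, were higher in both. Anxa2 averaged 193 ± 116 FPKM in MI_DCA, 276 ± 96.9 in MI_vehicle and 63.3 ± 2.30 in sham_vehicle hearts (SD, n = 6 each). Its log2 fold change against sham was 1.36 in MI_DCA (adjusted p = 0.0184) and 2.0 in MI_vehicle hearts (adjusted p = 6.37e-05), and that of S100a10 was 1.11 (adjusted p = 0.0244) in MI_DCA and 1.29 (adjusted p = 0.000468) in MI_vehicle hearts. Vtn, the gene of vitronectin, a matrix protein that Plaur binds, was lower in MI_vehicle hearts (-0.76, adjusted p = 0.00144) and not called in MI_DCA hearts (-0.62, adjusted p = 0.0930). Serpini1, the neuroserpin gene, was called lower in both (-0.49 with adjusted p = 0.0361 in MI_DCA and -0.61 with adjusted p = 0.00191 in MI_vehicle hearts). Of 4 enzymes of the vitamin K cycle, Vkorc1l1 was higher (0.38, adjusted p = 0.00205) and Nqo1 lower (-0.67, adjusted p = 0.0456) in MI_vehicle hearts, and none was called in MI_DCA hearts. Pros1 was named after its values were seen.

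No gene of these lists was called between MI_DCA and MI_vehicle hearts. Vwf had a log2 fold change of -0.06 (interval -0.56 to 0.45), F13a1 -0.32 (-0.80 to 0.17) and F2r -0.22 (-0.57 to 0.13). F5, below the filter, had -0.04 (exact permutation p = 0.379).

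**Figure D5:**
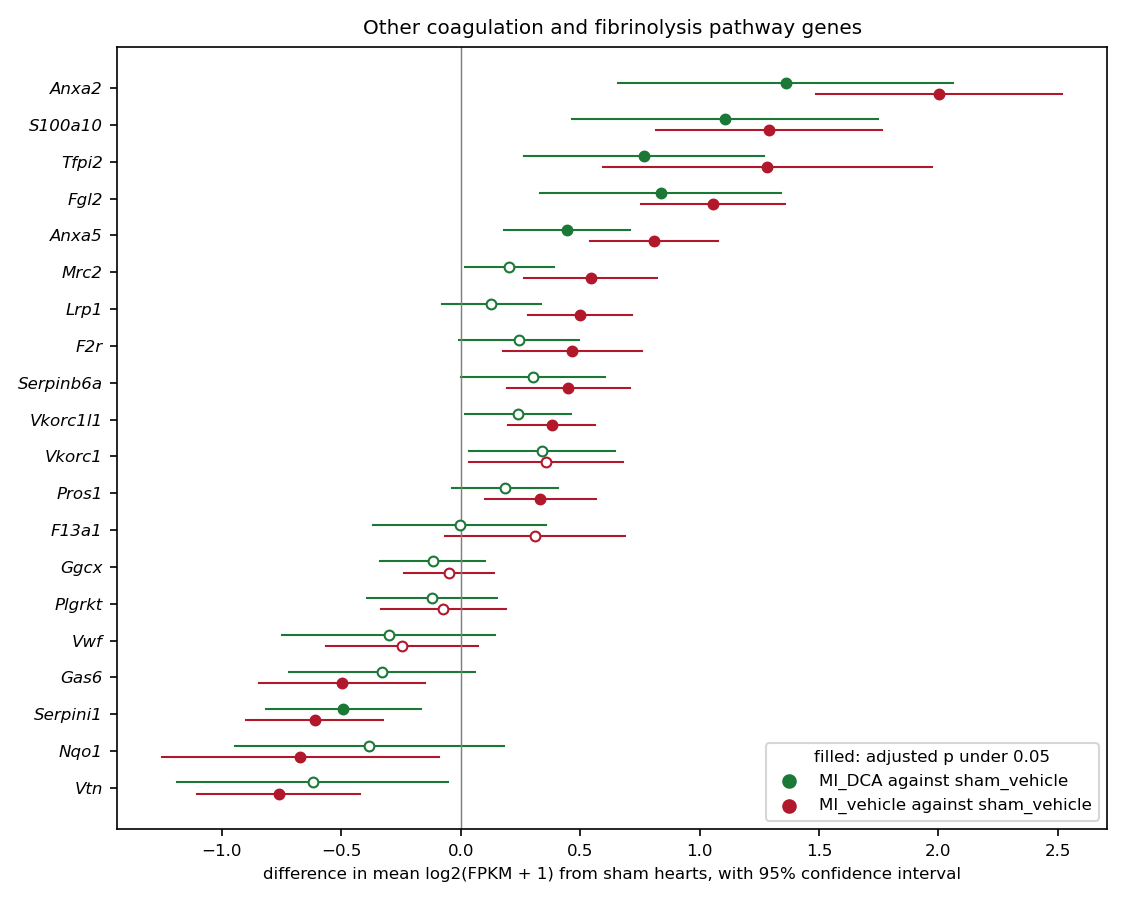
Difference in mean log2(FPKM + 1) from sham_vehicle hearts for the other pathway genes past the filter, with 95% confidence intervals, for MI_DCA (upper mark) and MI_vehicle hearts (lower mark), filled where the adjusted p was under 0.05. Anxa2, at 1.36 and 2.0, stands at the top of both sets and Vtn, at -0.62 and -0.76, at the bottom.

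Transcripts were read as a share of their gene's summed FPKM, in 10 transcripts of F10, Plau, Tfpi and Serpine2. None was called in any comparison by the exact permutation test adjusted over all transcripts tested, and neither was any of the 13813 to 13823 transcripts of all genes, a share of 0%. At an unadjusted p under 0.05 there were 1191 of 13813 transcripts of all genes in MI_DCA against sham_vehicle hearts, and 3 of the members' 10. In MI_DCA against MI_vehicle hearts there were 1263 of 13823, and 3 of 10. In MI_vehicle against sham_vehicle hearts there were 1752 of 13813, and 0 of 10. The shares of both Serpine2 transcripts mirror each other, as do those of Plau, so the same result was counted for each transcript. The counts of 3 therefore hold fewer than 3 separate results. These were Serpine2 and a Tfpi transcript against MI_vehicle hearts, and Plau and another Tfpi transcript against sham_vehicle hearts. The predicted second transcript of Serpine2 made up 42.6% ± 15.8 of the gene in MI_DCA, 16.02% ± 15.4 in MI_vehicle and 23.5% ± 17.8 in sham_vehicle hearts (SD, n = 6 each; MI_DCA against MI_vehicle, permutation p = 0.0195, adjusted p = 0.426). The curated transcript of Plau made up 50.9% ± 30.8 in MI_DCA, 33.4% ± 19.1 in MI_vehicle and 18.6% ± 15.97 in sham_vehicle hearts (MI_DCA against sham_vehicle, permutation p = 0.0455, adjusted p = 0.565). Reads were single and 50 bases long, which leaves the split between transcripts that share most of their exons uncertain.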

How the data were processed

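RNA of 18 heart apexes was read as single 50-base reads from RNA Access libraries, a hybridisation capture kit, per the labels' protocols. Without giving roles, the submitters' processing notes list the build GRCm38.p6, RSEM 1.2.12, Bowtie2 2.2.5 and DESeq2 1.4.5. The authors deposited a value for each gene and each transcript. These deposited values were taken as FPKM: their sum times transcript length varied less between libraries (coefficient of variation 0.71%) than their plain sum (3.5%). They hold no counts, so no counting interval can be given. Reads per library were estimated from the steps of low values, searched between 8000000 and 16000000.

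Each comparison was fitted in R 4.3.3 by limma 3.58.1 (trend option, no covariates) on log2(FPKM + 1) of its 12 libraries, for genes at 1 FPKM or more in at least 6 of them, with Benjamini-Hochberg adjustment over all genes tested. The scale understates changes of low genes. Genes below the filter were tested by exact permutation, adjusted over all such genes, and transcript shares likewise, over all transcripts with a mean of at least 1 FPKM rather than the members' alone as planned. Scripts were tested on simulated data. Coordinates came from a RefSeq table matching 19051 identifiers (99.2%). The members and lists were chosen with earlier results of these data known. Named genes are all members, up to 3 called genes per list and comparison, and Vwf, F5, F13a1 and F2r. A further gene of the fibrinolysis list is not reported here. Of the marker lists, those that bear on a member are given. Alternatives were pseudocount, filter, scaling, block, a fit over all 18 libraries and leaving out libraries.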

Additional observations from a re-analysis of the deposited data

Results flagged for a closer look

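Within each group of 6 hearts, the highest and lowest value of each member was compared with the rest by Dixon's ratio, over 30 groups of values. Chance sets apart about 1 in 20 such groups, and 2 were set apart here. Plau of MI_vehicle replicate 4, at 4.36 FPKM, lay far below the other 5 MI_vehicle hearts (ratio 0.69, above the 95% critical value). This library was also close to sham over all genes. Tfpi of sham_vehicle replicate 6, at 32.11 FPKM, lay far below the other 5 sham_vehicle hearts (ratio 0.69).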

How the results depend on the processing

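For single members, direction and call stayed as reported in 170 of the results under alternatives for MI_vehicle against sham_vehicle, 178 for MI_DCA against MI_vehicle and 158 for MI_DCA against sham_vehicle, and the sign turned in 6, 12 and 0. Thbd in MI_vehicle against sham_vehicle hearts turned with quantile normalization (-0.12), with median-ratio scaling (-0.12) and when MI_vehicle replicate 2 or 3, or replicate 5 or 6 of sham_vehicle, was left out (-0.040 to 0.089 over all single libraries). In MI_DCA against MI_vehicle hearts Serpine2 turned without MI_vehicle replicate 1, 2 or 6 or MI_DCA replicate 1, 3 or 5 (-0.10 to 0.12 over all), Tfpi without MI_vehicle replicate 2 or MI_DCA replicate 3 (-0.056 to 0.14), and F3 without MI_DCA replicate 3 (-0.021 to 0.25). Without the 4 infarcted libraries close to sham these 3 stood at -0.41, -0.14 and -0.24. Over all genes, the median in MI_vehicle against sham_vehicle hearts was 0.12 as deposited, -0.005 with median-ratio scaling and -0.03 with quantile normalization. The genes called split into 4583 higher and 2408 lower as deposited, 3379 and 3430, and 3195 and 3736. In MI_DCA against sham_vehicle hearts the split was 1830 and 987, 1346 and 1393, and 1305 and 1554. Leaving out 1 library, the genes called ranged over 6055 to 7719 and members over 8 to 9 in MI_vehicle against sham_vehicle hearts. F7 and F10, below 1 FPKM in every sham_vehicle heart, are among those members. In MI_DCA against sham_vehicle hearts genes ranged over 1055 to 4085 and members over 1 to 5. In MI_DCA against MI_vehicle hearts they ranged over 0 to 1 and 0 to 0, with 1 gene called without MI_vehicle replicate 5. Without the libraries close to sham, MI_DCA against sham_vehicle gave 6591 genes and 7 members, under a choice of libraries that favours calls. The cause was not tested. The labels do not state that equal replicate numbers pair libraries, and these values cannot settle it. With their group means removed, same-numbered libraries correlated above 0.1 in 1, 4 and 1 of 6 pairs (MI_vehicle against sham_vehicle, MI_DCA against MI_vehicle, MI_DCA against sham_vehicle). In MI_DCA against MI_vehicle hearts the pairs ranged over -0.44 to 0.686. In each comparison 1 library correlated best with its own number. With the replicate block, 6564 genes and 8 members, 0 and 0, and 1696 genes and 2 members were called, Plau in MI_DCA against sham_vehicle hearts not among them (adjusted p = 0.0607). Transcript shares gave 0 calls under every alternative run.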
